A study of Mus musculus with 4 samples.

Results

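The genes described here are those of axon guidance, synapses and transmitter signalling in the inflamed colon of mice with and without the transcription factor Elf4. Members were chosen by gene symbol, with earlier results of these data known. The symbols were those of semaphorins, plexins and neuropilins, Eph receptors and ephrins, Slit, Robo, netrin and Unc5 genes, neurexins, neuroligins, contactins and neural cell adhesion genes, synaptotagmins, SNAP proteins, granins, receptors for GABA, acetylcholine, serotonin and glutamate, the neuropeptides NPY, tachykinin 1 and VIP with their receptors, and Uchl1. Of the 4121 genes in the deposited table, 69 matched. RNA sequencing was done on distal colon of C57BL/6 mice aged 8 weeks, at day 6 of treatment with 3% dextran sulfate sodium (DSS), which injures the epithelium and causes colitis. The groups were 2 wild-type samples (WT) and 2 samples lacking Elf4 (Elf4-/-, labelled Elf4-KO), and all 4 received DSS. The sources used here do not give how the Elf4 allele was made or whether each sample was a separate mouse.

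The table holds 1 FPKM value per gene and genotype, a fragment count corrected for transcript length and library size. No spread between samples, SD or interval can therefore be given, and the depth is unknown. Every listed gene had passed the authors' call, so "rose" and "fell" rest on the authors' own comparison of Elf4-KO with WT. Both words refer to a share of the library, not to an absolute amount of RNA. Where no q is printed, the gene had the smallest q of the authors' deposited table, 0.000372. Elf4 itself went from 16.4 FPKM in WT to 3.51 FPKM in Elf4-KO, which left 21.4%.

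Neurons of the gut wall form the enteric nervous system, which controls motility, secretion and blood flow through acetylcholine, nitric oxide, serotonin and neuropeptides stored in vesicles. Guidance molecules steer growing axons: semaphorins act on plexins with neuropilins as co-receptors, membrane-bound ephrins on Eph receptors, Slits on Robo receptors, and netrins on DCC and Unc5 receptors. Outside the nervous system the same families pattern vessels, place cells along the intestinal crypt and act in immune cells.

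Most of these genes were higher in the knockout tissue. Of the 69 members, 52 (75.4%) rose and 17 (24.6%) fell, while among all 4121 listed genes 48.0% were higher and 52.0% lower. The median log2 ratio of Elf4-KO over WT, after adding 1 to each FPKM value, was 0.99 for the members and -0.76 for the whole table. Few ratios lie near 0 because of the table's fold limit. Each median therefore largely restates which direction holds more genes. Genes of neuronal adhesion, vesicle release, transmitter receptors, neuropeptides and Uchl1 together numbered 36, of which 30 rose. Among the 29 guidance genes, 19 rose and 10 fell, and 6 of those 10 were Eph receptors or ephrins. The rises were of moderate size, with a median fold of 2.85 beside 2.91 for all genes that rose. At least 4-fold higher were 6 members (12.9% of the table passed that limit), and at least 4-fold lower were 7 (24.5% of the table). Over these 13 members the median log2 ratio was -1.26, and -0.17 over the 12 left without Gabrp, which is listed at 0 in Elf4-KO. The whole table at that limit had a median of -1.83, and of -1.88 without genes listed at 0.

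**Figure D1:**
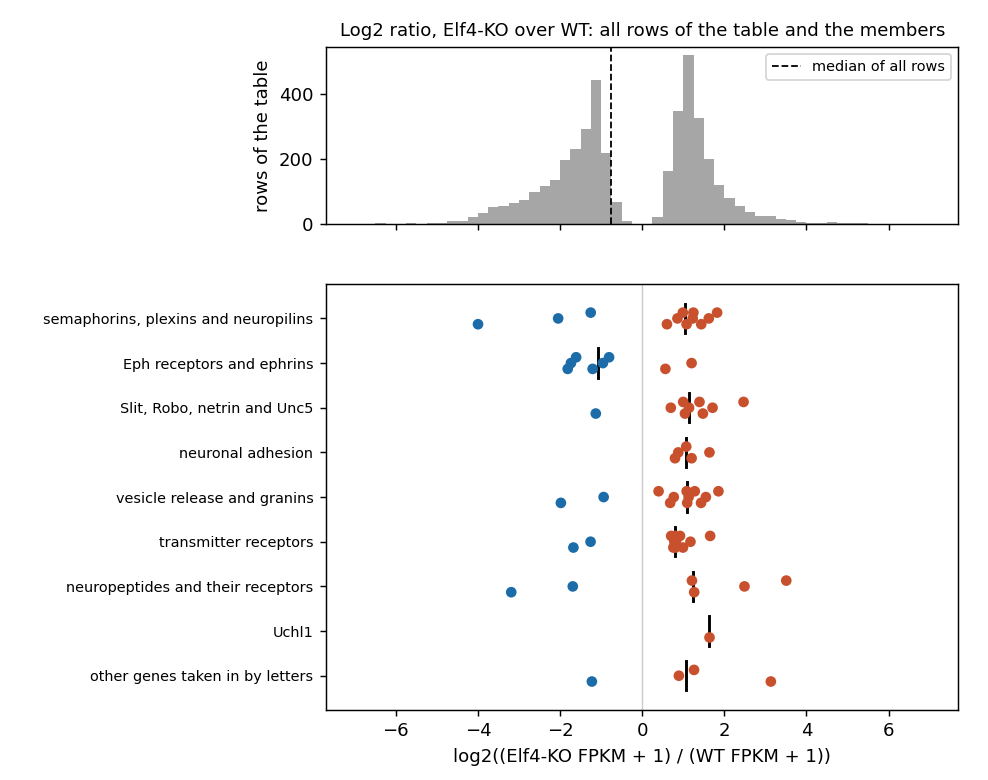
The upper panel counts all 4121 rows of the table by log2((Elf4-KO FPKM + 1)/(WT FPKM + 1)), with the median of -0.76 as a dashed line and a gap around 0 because only genes with about 2-fold or larger differences are listed. The lower panel shows each of the 69 members as a point by class (orange higher, blue lower in Elf4-KO) with the class median as a bar; the Eph and ephrin class is the only class of the 9 with a median below 0.

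Neuropeptide genes held the largest rise among the members, and they did not move as a group. Npy, encoding neuropeptide Y of sympathetic and some enteric neurons, was at 1.90 FPKM in WT and 32.0 FPKM in Elf4-KO, 16.9-fold higher (6:49822710-49829507 on GRCm38, plus strand). Vip encodes vasoactive intestinal peptide, a neuronal stimulant of secretion and relaxant of smooth muscle. It was at 77.2 FPKM in WT and 439 FPKM in Elf4-KO, 5.68-fold higher (10:5639218-5647617, plus strand). Tac1, the precursor of substance P and neurokinin A, which contract gut muscle and act on pain fibres, went the other way. It fell 3.25-fold, from 379 FPKM in WT to 117 FPKM in Elf4-KO (6:7554879-7565834, plus strand). Tac1 was thus the higher of this pair in WT, at 4.91 times the level of Vip per transcript length, and the lower in Elf4-KO, at 0.266 times.

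The receptors for VIP also moved in opposite directions. Vipr1, the VIP receptor abundant in intestinal epithelium and T cells, fell 11.1-fold, from 44.8 to 4.02 FPKM (9:121642716-121672954). Vipr2, the VIP receptor of smooth muscle, rose 3.03-fold, from 2.26 to 6.84 FPKM (12:116077726-116146261). The level of Vipr1 per length was 19.8 times that of Vipr2 in WT and 0.587 times in Elf4-KO. Npy1r, a receptor for neuropeptide Y, rose from 1.98 to 5.89 FPKM, with q = 0.00184 in the authors' deposited table. None of the 3 annotated tachykinin receptor genes was listed. Genes that the table does not list were not analysed here.

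The start regions of these 5 peptide and receptor genes are shown because ligand and receptor genes of 1 system moved in different directions, and because Elf4 belongs to the Ets family, whose members bind DNA around GGAA. The windows come from RefSeq on GRCm38.p6 and run 5′ to 3′ on the gene's own strand. They span 250 bases before to 50 bases after the RefSeq gene start, which for Tac1 lies inside the gene span given above. Capitals mark GGAAGT, or ACTTCC where it lies on the other strand. The windows are chr10:5638968-5639267 for Vip, chr6:49822460-49822759 for Npy, chr6:7554811-7555110 for Tac1, chr9:121642466-121642765 for Vipr1 and chr12:116077476-116077775 for Vipr2, all on the plus strand.
Vip: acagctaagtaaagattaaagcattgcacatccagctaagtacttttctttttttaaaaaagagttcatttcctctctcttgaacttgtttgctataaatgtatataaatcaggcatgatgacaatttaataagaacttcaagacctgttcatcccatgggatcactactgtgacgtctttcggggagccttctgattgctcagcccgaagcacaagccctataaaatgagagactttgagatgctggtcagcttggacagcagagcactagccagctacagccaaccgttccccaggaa
Npy: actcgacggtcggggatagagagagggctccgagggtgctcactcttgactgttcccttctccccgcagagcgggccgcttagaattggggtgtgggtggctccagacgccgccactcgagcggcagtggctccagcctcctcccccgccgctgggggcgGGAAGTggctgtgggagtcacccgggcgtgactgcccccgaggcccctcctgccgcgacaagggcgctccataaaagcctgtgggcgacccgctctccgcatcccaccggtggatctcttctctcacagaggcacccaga
Tac1: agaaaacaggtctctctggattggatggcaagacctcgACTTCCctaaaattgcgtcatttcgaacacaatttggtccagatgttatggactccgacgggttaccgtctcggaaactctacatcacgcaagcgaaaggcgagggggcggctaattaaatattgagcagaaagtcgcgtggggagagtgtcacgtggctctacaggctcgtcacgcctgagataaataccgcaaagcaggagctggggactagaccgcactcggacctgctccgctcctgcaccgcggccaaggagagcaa
Vipr1: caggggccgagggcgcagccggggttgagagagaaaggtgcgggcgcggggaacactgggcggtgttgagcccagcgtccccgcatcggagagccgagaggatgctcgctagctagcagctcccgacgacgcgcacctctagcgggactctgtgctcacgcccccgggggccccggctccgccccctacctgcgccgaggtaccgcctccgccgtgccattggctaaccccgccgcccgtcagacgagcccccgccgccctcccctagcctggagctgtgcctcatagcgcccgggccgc
Vipr2: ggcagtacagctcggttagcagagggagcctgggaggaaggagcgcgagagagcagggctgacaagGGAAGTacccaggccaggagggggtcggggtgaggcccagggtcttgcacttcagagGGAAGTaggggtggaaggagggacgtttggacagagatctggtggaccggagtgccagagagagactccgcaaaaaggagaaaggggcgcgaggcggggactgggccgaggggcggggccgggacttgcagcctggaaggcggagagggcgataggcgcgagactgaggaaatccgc
Among these 5 windows, GGAAGT occurred once in Npy, which rose, once in Tac1, which fell, and at 2 places in Vipr2, which rose. Of the 69 members, 54 had a window, 66 windows in all. GGAAGT on either strand was in 15 of the 66 (22.7%), beside 23.8% of all 32851 windows and 22.3% of the windows of listed genes. The longer CCGGAAGT, which contains it, was in 0 of the 66, beside 3.89% of all windows and 2.68% of the windows of listed genes. The shares with GGAAGT were 22.2% for windows of members that rose and 23.8% for those that fell. These are matches of letters and say nothing about binding.

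Vesicle release genes rose with 2 exceptions, while 48.0% of all listed genes were higher. Snap25, the membrane SNARE protein of neuronal exocytosis, rose from 10.1 to 28.9 FPKM. Syt1, the calcium sensor of fast transmitter release, rose from 2.93 to 7.61 FPKM, and Syt4, a synaptotagmin of dense-core vesicles, from 3.56 to 15.5 FPKM. The latter was the largest fold of the class among rises, 4.36. Syt13 rose from 8.72 to 19.8 FPKM. Syt6 and Syt14 were low, at 0.920 and 0.238 FPKM in WT and 2.27 and 0.632 FPKM in Elf4-KO, and Syt14 was the only member under 1 FPKM in both genotypes. Snap91, a clathrin assembly protein of synapses, went from 1.10 to 2.37 FPKM. The q in the authors' deposited table was 0.0157 for Syt6, 0.0185 for Syt14 and 0.0323 for Snap91.

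The 3 secretogranin genes, whose products fill dense-core granules of neurons and endocrine cells or help process their cargo, rose together. Scg2 went from 10.4 to 26.7 FPKM, Scg5 from 5.93 to 19.3 FPKM and Scg3 from 2.67 to 6.76 FPKM (authors' deposited table: q = 0.00263 for Scg3). Neither of the 2 chromogranin genes was listed. The synaptotagmins that fell were Syt8, from 4.08 to 0.287 FPKM, and Syt7, from 3.38 to 1.29 FPKM. Syt7 is a calcium sensor also of lysosome exocytosis in cells other than neurons. In the authors' deposited table, q was 0.000694 for Syt8 and 0.00156 for Syt7. Syt8 kept 7.04% of its WT level, against 38.0% for Syt7.

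Uchl1, the neuronal ubiquitin hydrolase also known as PGP9.5 and used to stain enteric neurons, rose from 22.8 to 72.9 FPKM. Its deposited locus (5:66626495-66687234) is 5.45 times as long as the annotated gene (5:66676091-66687234), so its value is uncertain.

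**Figure D2:**
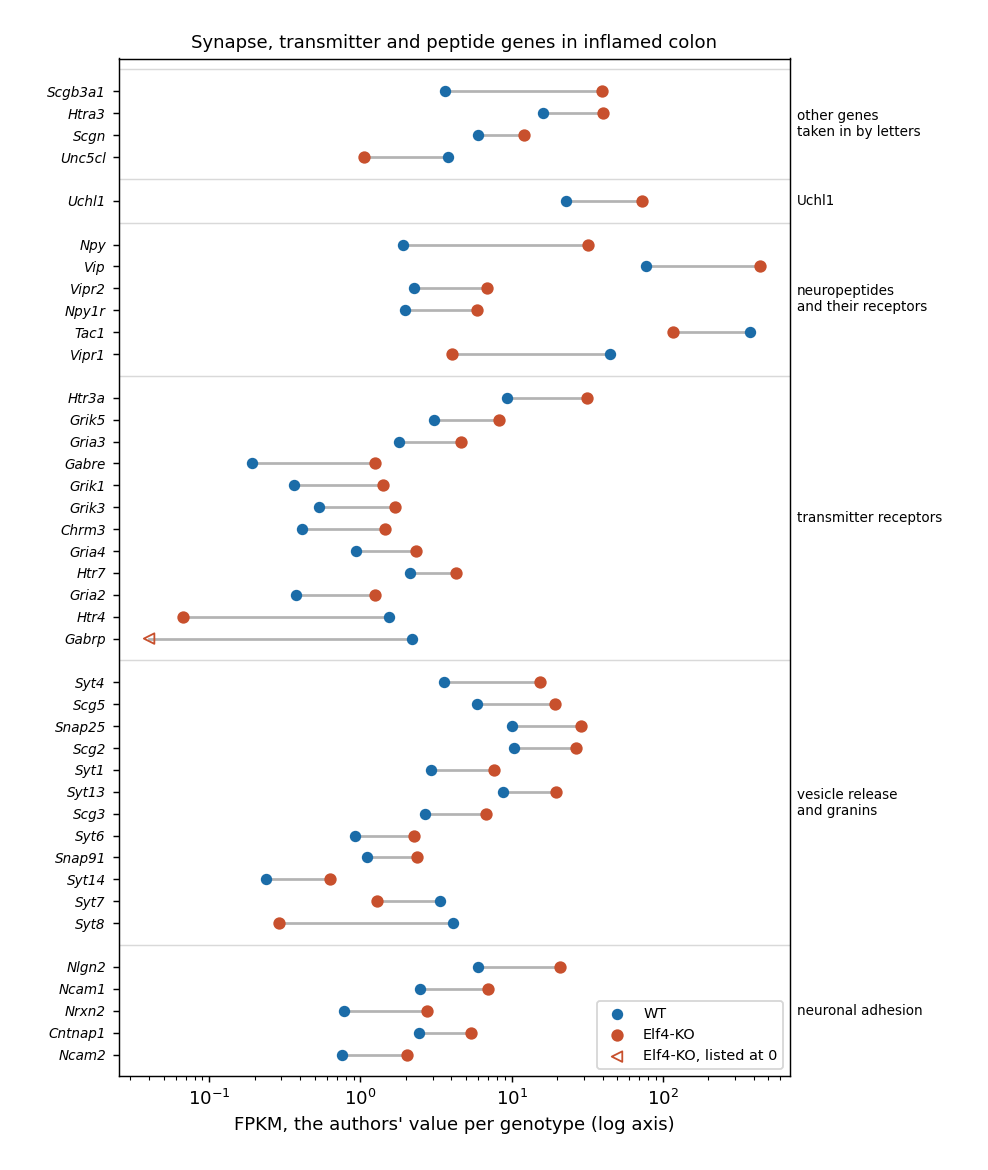
Each line joins the WT (blue) and Elf4-KO (orange) FPKM value of 1 gene on a log axis, by class, with 1 value per genotype and no error. Vip, Npy and Scgb3a1 show long lines to the right, while Vipr1, Syt8 and Htr4 show long lines to the left, and Gabrp is drawn as an open triangle at the left edge because it was listed at 0 in Elf4-KO.

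Transmitter receptor genes were mostly low, with 10 of 12 under 5 FPKM in both genotypes, beside 22.5% of the whole table. Of the 12, 10 rose, beside 48.0% higher among all listed genes. Of the 9 annotated AMPA and kainate glutamate receptor subunits, 6 were listed and 6 rose; other glutamate receptor families lie outside the symbol pattern. Among the AMPA receptor subunits, Gria3 went from 1.81 to 4.59 FPKM, Gria4 from 0.937 to 2.33 FPKM and Gria2 from 0.377 to 1.25 FPKM. Among the kainate receptor subunits, Grik5 went from 3.08 to 8.22 FPKM, Grik3 from 0.533 to 1.68 FPKM and Grik1 from 0.361 to 1.41 FPKM. Their folds lay between 2.49 and 3.90, and 4 of the 6 were under 1 FPKM in WT. The authors' deposited table gave q = 0.0395 for Gria3, 0.0192 for Gria4, 0.0168 for Gria2 and 0.000998 for Grik1.

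Serotonin receptors split. Htr3a, the ion channel subunit by which serotonin excites enteric and sensory neurons, rose from 9.33 to 31.5 FPKM. It had the highest FPKM of the listed transmitter receptors in both genotypes. Htr7, a G protein coupled receptor of muscle and neurons, rose from 2.14 to 4.32 FPKM. Htr4, a receptor that promotes motility and secretion, fell from 1.55 to 0.0673 FPKM, the largest fold given for a member that fell, 23.1. The authors' deposited table gave q = 0.0402 for Htr7 and 0.00384 for Htr4. Of the remaining receptors, Chrm3, a muscarinic acetylcholine receptor of smooth muscle and glands, rose from 0.409 to 1.46 FPKM, with q = 0.00773 in the authors' deposited table. Its deposited locus was 1.61 times the annotated gene. The GABA receptor subunits Gabre and Gabrp were opposite: Gabre (q = 0.000694 in the authors' deposited table) rose from 0.191 to 1.26 FPKM, and Gabrp, a subunit also found in epithelia, was at 2.19 FPKM in WT and listed at 0 in Elf4-KO. No fold is given against this 0, which may stand for a failed estimate. None of the 16 annotated nicotinic receptor subunits was listed.

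The 5 listed genes of neuronal adhesion rose, beside 48.0% higher among all listed genes. Nlgn2, the neuroligin of inhibitory synapses, went from 6.02 to 20.9 FPKM, and Nrxn2, a presynaptic neurexin that binds neuroligins, from 0.779 to 2.74 FPKM. Ncam1, on neurons, glia and natural killer cells, went from 2.47 to 6.98 FPKM and Ncam2 from 0.750 to 2.05 FPKM. Cntnap1, a protein of axon-glia contacts in myelinated nerve, went from 2.46 to 5.35 FPKM. The q values in the authors' deposited table were 0.000694 for Nrxn2, 0.00992 for Ncam2 and 0.0442 for Cntnap1. The folds ranged from 2.18 for Cntnap1 to 3.52 for Nrxn2.

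Among semaphorins, 5 rose and 3 fell, while 48.0% of all listed genes were higher, and the changes ran across the subclasses. Sema4g, a transmembrane semaphorin, went from 59.7 FPKM in WT to 2.80 FPKM in Elf4-KO, which left 4.69% (19:44989101-45003397, plus strand). Sema4a, which acts in T cell activation, went from 89.1 to 20.8 FPKM. Sema4c was the exception in class 4, with a rise from 6.43 to 25.3 FPKM. The deposited locus of Sema4c was 13.9 times as long as the annotated gene, so its value is uncertain. Among the secreted class 3 semaphorins, Sema3f rose from 14.3 to 46.0 FPKM and Sema3g from 2.55 to 5.44 FPKM, while Sema3b fell from 19.0 to 7.38 FPKM. Sema7a, a lipid-anchored semaphorin that binds integrins, rose from 11.3 to 32.3 FPKM, and Sema6b from 5.54 to 14.5 FPKM.

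The semaphorin receptors that were listed all rose. Nrp2, co-receptor for Sema3f and for lymphatic growth factors, went from 16.1 to 39.2 FPKM, and Nrp1, co-receptor also for the vascular growth factor VEGF, from 10.3 to 21.4 FPKM. Plxnd1, an endothelial plexin, went from 9.90 to 22.1 FPKM, and Plxna4, a neuronal plexin, from 0.654 to 1.51 FPKM. Their folds were close, between 2.08 and 2.43. In the authors' deposited table, q was 0.00832 for Sema3g, 0.00891 for Plxnd1 and 0.00429 for Plxna4.

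Eph receptors and ephrins were the class with most falls, 6 of 8, beside 52.0% lower among all listed genes. Both listed B-type ephrins fell: Efnb1 from 27.8 to 7.19 FPKM and Efnb2 from 25.4 to 7.65 FPKM. EphB receptors and B-type ephrins form opposing gradients that position cells along the crypt. Ephb2, highest in crypt base cells, fell from 9.31 to 2.09 FPKM, and Ephb6, which lacks kinase activity, from 2.91 to 1.24 FPKM. Epha2, an epithelial receptor, fell from 14.9 to 7.18 FPKM and Epha4 from 4.22 to 1.26 FPKM. The 2 that rose were a ligand and receptor of the A type, Efna5 from 1.90 to 5.67 FPKM and Epha3 from 0.389 to 1.05 FPKM. These q values stood in the authors' deposited table: 0.000694 for Epha2, 0.0270 for Ephb6, 0.00263 for Efna5 and 0.0185 for Epha3.

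In the Slit, Robo and netrin class 8 of 9 genes rose, beside 48.0% higher among all listed genes. Slit3 rose 5.94-fold, from 11.1 to 66.2 FPKM, the largest rise among guidance genes, and Slit2 from 1.09 to 3.30 FPKM. Both encode secreted ligands of Robo receptors. Robo4, the endothelial Robo, rose from 3.66 to 14.3 FPKM and Robo1 from 2.33 to 6.35 FPKM, whereas Robo2 fell from 14.9 to 6.26 FPKM. Robo2 was 6.38 times as abundant per length as Robo1 in WT and 0.985 times in Elf4-KO. The deposited locus of Robo1 covers 0.519 of the annotated gene. The netrin genes rose: Ntn1, the secreted guidance cue, from 10.1 to 30.0 FPKM, Ntn4, of basement membranes, from 3.20 to 7.39 FPKM, and Ntng2, a membrane-anchored relative, from 5.62 to 16.4 FPKM. The netrin receptor gene Unc5c rose from 0.715 to 1.78 FPKM. In the authors' deposited table, q was 0.000694 for Slit2, 0.0336 for Robo2, 0.00128 for Ntn4, 0.00542 for Ntng2 and 0.0162 for Unc5c.

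**Figure D3:**
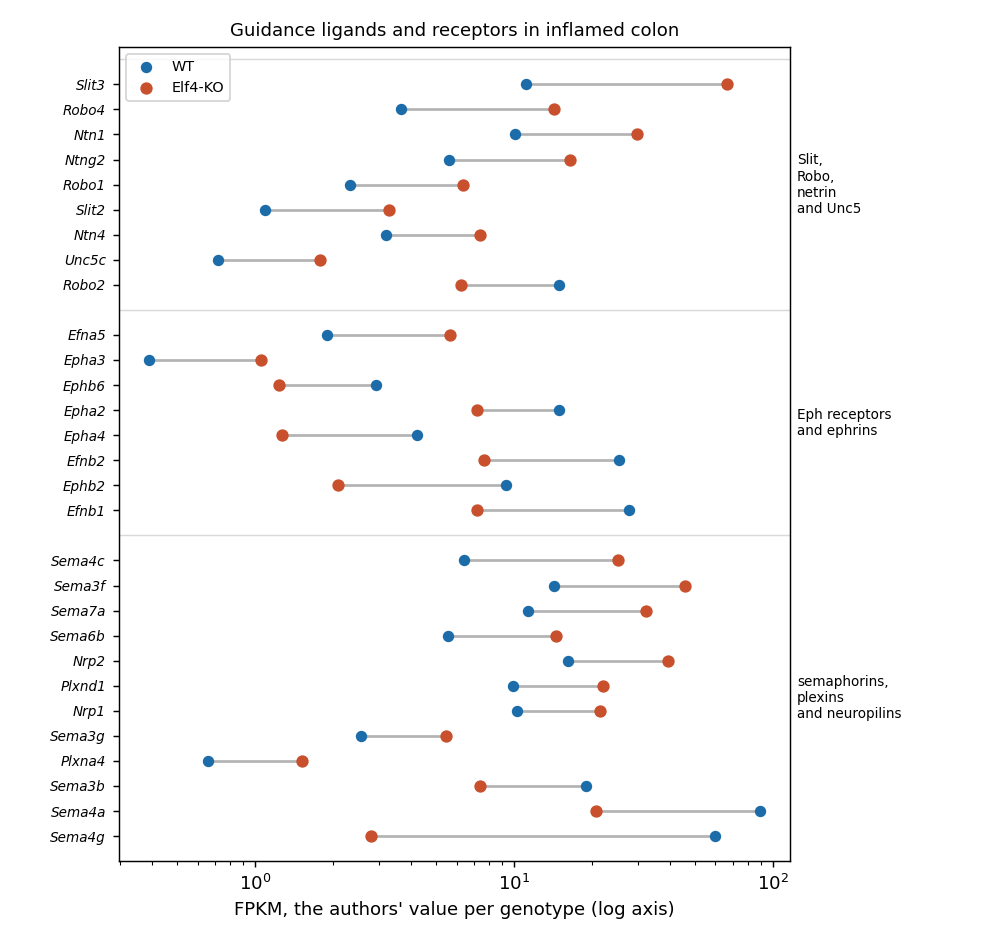
Each line joins the WT (blue) and Elf4-KO (orange) FPKM value of 1 of the 29 guidance genes on a log axis, with 1 value per genotype and no error. In the Eph and ephrin block 6 of 8 lines run to the left, while in the Slit, Robo and netrin block Robo2 alone does, and Sema4g has the longest line.

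Members that lie near each other in the genome did not always share a direction. Among the 3 pairs of members within 1 Mb, chosen after the values were seen, Sema3b and Sema3f are 72.3 kb apart on chromosome 9 (107597674-107609229 and 107681500-107710475) and moved in opposite directions. Robo1 and Robo2, 846 kb apart on chromosome 16, did so too, while Htr3a and Ncam1, 591 kb apart on chromosome 9, both rose. Members that rose were long genes, with a median annotated span of 68.8 kb beside 29.1 kb for all genes that rose. Members that fell had a median span of 28.2 kb beside 20.1 kb for all genes that fell.

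By letters alone the symbol pattern also took in 4 genes of other families. Scgb3a1, a secretoglobin of mucosal secretions, rose 10.9-fold, from 3.64 to 39.7 FPKM. Htra3, a secreted serine protease, rose from 16.1 to 40.1 FPKM. Scgn, the calcium-binding protein secretagogin of endocrine cells and neurons, rose from 6.00 to 12.0 FPKM, and Unc5cl, which is not a netrin receptor, fell from 3.79 to 1.05 FPKM. The authors' deposited table gave q = 0.00128 for Scgb3a1, 0.0232 for Scgn and 0.00954 for Unc5cl. Without these 4 genes, 49 of 65 members rose.

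How much of each family the table covers differed. In the GENCODE M21 annotation, 241 protein-coding genes match the pattern, and the 69 listed are 28.6% of them, beside 17.5% of all 21951 protein-coding genes. The listed share was 9 of 18 for the Slit, Robo, netrin and Unc5 genes, 12 of 27 for vesicle release and granins, and 12 of 31 for semaphorins, plexins and neuropilins. It was 12 of 63 for transmitter receptors and 0 of 4 for the Dpysl genes, which relay semaphorin signals in axons.

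Other genes of the same pathways were counted in 7 lists of 148 genes outside the symbol pattern. Of these, 51 were listed, 38 higher and 13 lower, with a median log2 ratio of 1.04. For comparison, all listed genes had a median log2 ratio of -0.76, and 48.0% of them were higher. Of all protein-coding genes, 17.5% were listed. Neuropeptides and neurotrophic factors were the most uniform list: 12 of 18 were listed and all 12 rose. This depends on how the list was drawn. It leaves out the members Npy and Vip, which rose, and Tac1, which fell. Several gut hormone genes were counted instead with the enteroendocrine markers, of which 4 of 8 listed were lower. Gal, the galanin gene, went from 12.3 to 120.4 FPKM and Cartpt, of the CART peptide, from 2.34 to 19.9 FPKM. Of 20 neuropeptide receptor genes 3 were listed. Calcrl, the receptor chain for CGRP and adrenomedullin, rose from 20.3 to 59.9 FPKM and Adcyap1r1, the PACAP receptor, from 3.23 to 9.13 FPKM, while Grpr, the receptor for gastrin-releasing peptide, fell from 0.777 to 0.176 FPKM. The authors' deposited table gave q = 0.00211 for Calcrl and 0.0395 for Grpr.

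Of 28 further vesicle release genes, 13 were listed, 10 higher and 3 lower. Sv2a, a synaptic vesicle glycoprotein, rose from 0.815 to 3.82 FPKM (authors' deposited table: q = 0.000998) and Syp, synaptophysin, from 3.27 to 8.96 FPKM. Cadps2, a priming factor of dense-core vesicles, fell from 13.0 to 2.66 FPKM. Of 20 genes of transmitter synthesis and transport, 8 were listed, 5 higher and 3 lower. Maoa, which degrades serotonin and noradrenaline, fell from 125 to 16.7 FPKM, and Slc6a4, the serotonin uptake transporter, from 4.35 to 0.766 FPKM. Tph1, for serotonin synthesis outside the brain, rose from 4.62 to 15.8 FPKM. For Slc6a4 q was 0.00811 in the authors' deposited table, and for Tph1 it was 0.000998.

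The remaining lists moved both ways. Of 18 semaphorin signalling partners, 4 were listed: Chl1, a neural adhesion molecule, rose from 10.2 to 38.5 FPKM, Rnd1, a GTPase bound by plexins, from 3.97 to 14.1 FPKM and Nfasc, neurofascin, from 0.852 to 3.17 FPKM. Met, the epithelial hepatocyte growth factor receptor, fell from 23.8 to 6.05 FPKM. Of 22 netrin, Slit and Eph signalling partners, 7 were listed, 4 higher and 3 lower. By log2 ratio with 1 FPKM added, the 3 largest changes were falls in Ngef, an exchange factor downstream of Eph receptors, from 6.18 to 0.513 FPKM, Flrt3, a ligand of Unc5 receptors, from 11.0 to 3.47 FPKM and Nck2, an adaptor, from 25.5 to 11.8 FPKM (authors' deposited table: q = 0.0130 for Nck2). By fold Nck2 changed least of the 7, at 2.16, and Ablim3, Flrt2, Srgap3 and Vav3, named after their values were seen, rose 2.21-fold to 2.93-fold. For these 4 the authors' deposited table gave q = 0.000694 for Ablim3, 0.00832 for Flrt2, 0.00753 for Srgap3 and 0.00238 for Vav3. Of 22 postsynaptic scaffold genes, 4 were listed. Nptx2, a neuronal pentraxin, rose from 0.287 to 3.93 FPKM (authors' deposited table: q = 0.000694) and Shank3 from 4.44 to 10.8 FPKM, while Homer2 fell from 6.06 to 0.539 FPKM and Dlg3 from 27.4 to 11.3 FPKM.

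Markers of several cell types moved with these genes in the same tissue. Over the table as a whole, 48.0% of genes were higher and 52.0% lower, and 17.5% of protein-coding genes were listed. Of 19 enteric neuron markers outside the pattern, 10 were listed and 10 rose, with folds of 2.50 to 4.55 and a summed level of 73.0 FPKM in WT and 239 FPKM in Elf4-KO. Among the largest changes by log2 ratio with 1 FPKM added were Ednrb, the endothelin receptor of neural crest cells (15.8 to 71.8 FPKM), and Prph, the neuronal filament peripherin (13.3 to 42.2 FPKM). Of 15 glia and Schwann cell markers, 5 were listed, 4 higher and 1 lower. Cdh19 rose from 1.75 to 7.45 FPKM, Foxd3 from 0.977 to 2.46 FPKM and Sox10 from 1.41 to 2.97 FPKM, whereas Erbb3, also an epithelial receptor, fell from 33.4 to 5.46 FPKM. In the authors' deposited table, q was 0.0295 for Foxd3 and 0.0368 for Sox10.

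Other cell types moved too. Beside them stand the same shares of all genes: 48.0% of listed genes higher, 52.0% lower, and 17.5% of protein-coding genes listed. All 15 epithelial markers were listed and fell, with folds of 2.60 to 19.4 and a summed level of 10147 FPKM in WT and 780.1 FPKM in Elf4-KO. Of 15 endothelial markers 13 were listed and 13 rose (161 to 521 FPKM summed), and of 14 fibroblast markers 8 were listed and 8 rose (1392 to 4862 FPKM summed). Among 14 myeloid markers 11 were listed, 10 higher and 1 lower (1339 to 3914 FPKM summed). Enteroendocrine markers went both ways, with 8 of 19 listed, 4 higher and 4 lower (1364 to 624 FPKM summed). Each sum is weighted towards the most abundant genes of its list. Against their sums moved 4 enteroendocrine markers and 1 myeloid marker, Ly6g, named after its value was seen. Ly6g had the highest WT level of the myeloid list and fell from 854 to 146 FPKM. Of 14 smooth muscle and interstitial cell markers, Kit alone was listed, at 7.95 FPKM in WT and 17.7 FPKM in Elf4-KO (authors' deposited table: q = 0.00184). No listed marker was at 0 in either genotype. In whole tissue, fewer cells of a type and less RNA per cell cannot be told apart, nor can more cells and more RNA per cell. FPKM is relative to the library, so a rise is a larger share of the RNA and need not be a gain. The part of any of these cell types in the members' differences was not tested.

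**Figure D4:**
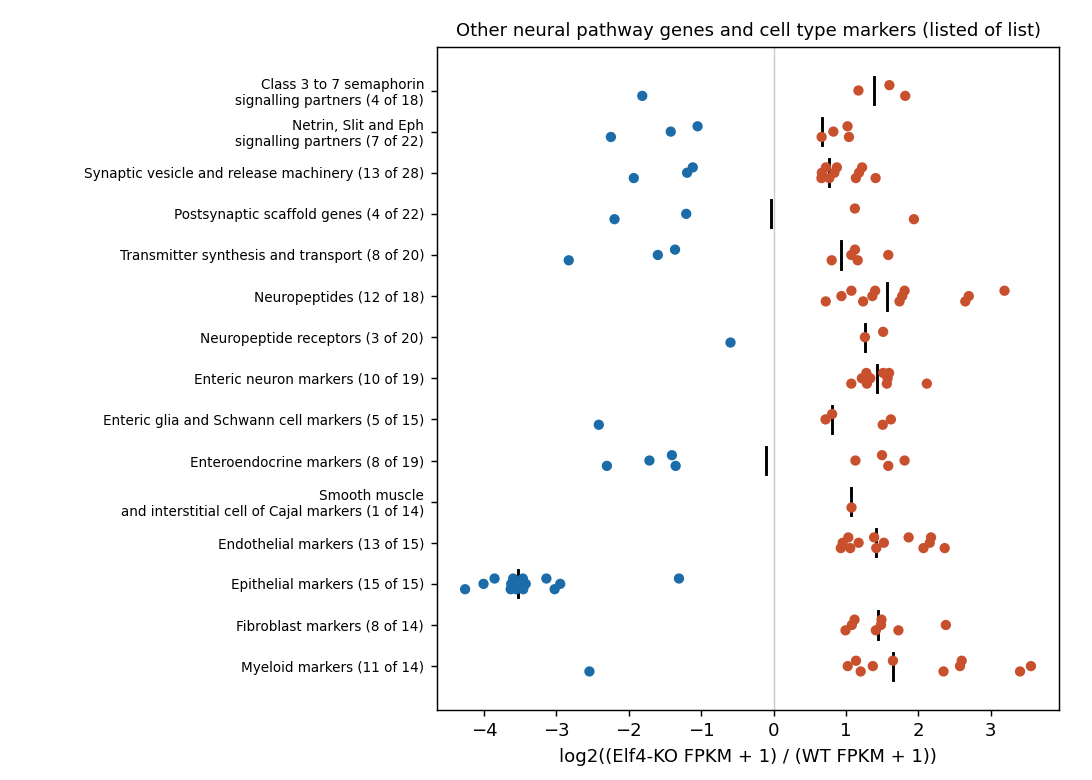
Each point is 1 listed gene of 7 pathway lists and 8 cell type lists, by log2((Elf4-KO FPKM + 1)/(WT FPKM + 1)), with the list median as a bar and the number listed of the list in brackets (orange higher, blue lower in Elf4-KO). The 15 epithelial markers lie to the left of 0, and the 10 enteric neuron, 13 endothelial and 8 fibroblast markers to the right.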

How the data were processed

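Bowtie 0.12.2, Cufflinks 2.2.1 and the build mm8 are named, without roles, in the submitters' processing notes. Per the file headers, the deposited table gives FPKM for each genotype, with both samples combined, and p-values and q-values of the authors' own comparison. The sources used here do not say how samples were combined. By its values, the table holds genes with q of at most 0.05 and a fold of about 2 or more.

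Loci were taken to be on GRCm38: all 69 members lay on the GENCODE M21 chromosome, 61 had its start and 57 its end. The deposited starts were raised by 1. Of the 69 loci, 0 overlapped another row. Log2 ratios were computed from the deposited FPKM values with a pseudocount of 1, and folds without one. With 1 value per genotype no test of samples was possible. The counting of directions was run on simulated data with directions set in advance and no pseudocount, which checks the arithmetic only.

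Members and lists were chosen with earlier results of these data known. Every member was named. Of each pathway, neuron and glia list every listed gene up to 5 was named, otherwise the 3 largest log2 changes with at least 1 FPKM. The same rule was fixed for the other cell type lists, which are given by counts and sums, with Kit and Ly6g also named. Pattern genes were dropped from the lists. The values of 3 genes so named are not reported here. Tried instead were a q limit of 0.01, a fold limit of 4, minimums of 1 and 5 FPKM, pseudocounts of 0.1 and 0, centring, and leaving out members of other families or with overlapping loci. Python 3.11.15, numpy 2.4.6, pandas 2.3.3 and matplotlib 3.10.9 were used.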

Additional observations from a re-analysis of the deposited data

How the results depend on the processing

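No paired analysis was possible because each genotype has a single combined value. Leaving out each sample could not be run for the same reason. With a fold of at least 4, by construction fewer genes, 6 members were higher and 7 lower. Their median log2 ratio was -1.26 in place of 0.99, and 3 classes were mostly higher in place of 8. At this limit 34.5% of the whole table was higher, with a median of -1.83, beside 46.2% of the members. The class medians became -3.02 for semaphorins, plexins and neuropilins, -1.26 for transmitter receptors and -0.062 for vesicle release and granins. Leaving out Gabrp, listed at 0, from that setting was chosen after seeing the data. It gave 6 higher and 6 lower, a median of -0.17 over members and of -0.17 for transmitter receptors, and again 3 classes. With at least 5 FPKM in the higher genotype, 35 members were higher and 10 lower. Centring on the table median gave a member median of 1.75 and moved the Eph and ephrin median from -1.08 to -0.33. The table median itself largely reflects the shares of rises and falls. The transmitter receptor median, 0.81, was 1.42 with at least 5 FPKM, 1.44 with a pseudocount of 0.1 and 1.66 without one. Counting each class in each setting, the class median moved by over 1.5 times in the same direction in 19 cases. It moved by less or not at all in 43 and changed sign in 6. The direction of a single gene is fixed by its FPKM values under every setting but centring, so these settings do not test it.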
